A study of Mus musculus with 6 samples.

Results

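The enzymes that make and break down heme were followed in the livers of mice fed regular or soy-enriched chow, to see whether their transcripts differed with the diet. The group holds 9 genes, namely Alas1, Alad, Uros, Urod, Cpox, Ppox and Fech of heme synthesis and Hmox1 and Blvrb of heme breakdown, of 22911 genes with a matched probe. Its members are all non-control array probes whose RefSeq accession belongs to a listed gene, which gave 14 of 56605 probes. The control group was 3 male mice fed regular chow only, and the soy group was 3 male mice whose chow was 75% regular food and 25% soy bean. All 6 mice were 12 weeks old, ate their diet for 4 weeks, and gave a piece of the right liver lobe that was hybridized to its own Agilent 1-colour array, while strain and time of death are not given in the sources used here. The soy chow as a whole was compared, so that no single soy compound can be told apart from the rest of the diet. The labelled tissue was checked against 8 hepatocyte markers, all of which were well above background on all 6 arrays, with Alb, the serum albumin gene, as the brightest.

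Heme is an iron-porphyrin that hepatocytes build mainly for their cytochrome P450 enzymes, in a path that starts and ends in the mitochondrion. The first enzyme, ALAS1, sets the rate in liver, and heme holds its own synthesis in check by lowering the amount of this enzyme. Worn heme is opened by heme oxygenase to biliverdin, iron and carbon monoxide, and biliverdin reductases turn the pigment into bilirubin.

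Of the 9 genes, 1 passed the thresholds used throughout, namely an adjusted p below 0.05 together with a fold change that exceeded 1.5 or fell short of 0.66. This was Blvrb, and it was higher in soy livers by 0.97 on the log2 scale (1.95-fold). Over all genes with a probe, 0.532% passed in either direction. On the brightest probe of each gene, the 3 control and the 3 soy arrays did not overlap for Urod, Cpox and Blvrb, which were higher in soy, and for Alas1 and Hmox1, which were lower. Such separation was found upward in 9.68% of all genes and downward in 10.8%, so that on the brightest probe 3 and 2 of the 9 members stand beside these shares. The median log2 change over the 9 genes was 0.04, against -0.01 over all genes, with 5 members above 0 and 4 below.

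**Figure D1:**
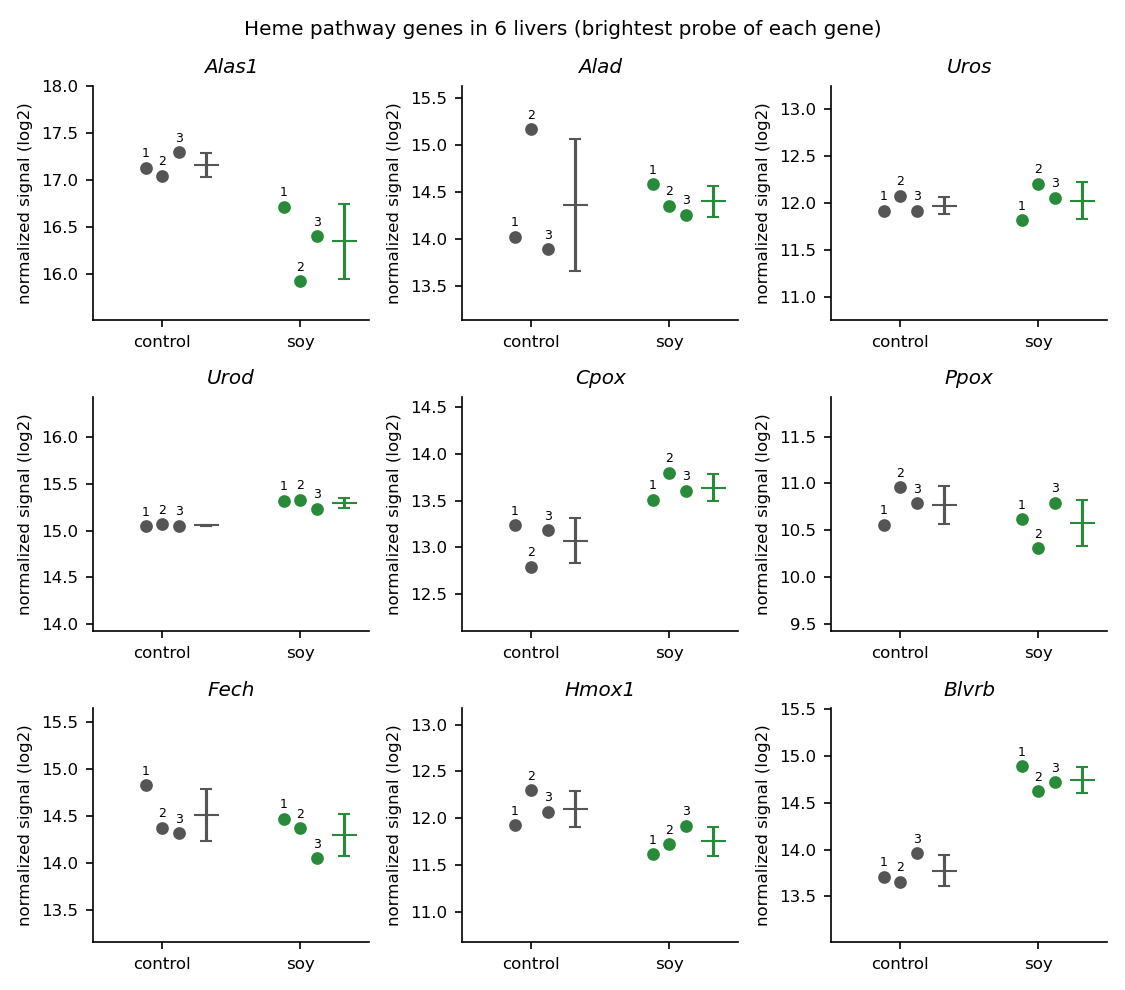
Normalized signal (log2) of the 9 heme pathway genes in 6 livers, on the brightest probe of each gene. Points are arrays with their replicate number, bars are mean and SD of 3 arrays, and every panel spans the same log2 range around its own centre. Alas1 (control 17.16 ± 0.13, soy 16.35 ± 0.40) lies lower in soy and Blvrb (control 13.78 ± 0.16, soy 14.74 ± 0.13) higher, whereas the Alad panel is set apart by control 2 at 15.17.

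Sequence upstream of Alas1, Urod, Cpox and Blvrb, of the genes whose groups were separate, is shown first, so that the letters searched below can be seen in place. RefSeq promoter windows of 300 bases (250 before to 50 after a transcription start, assembly GRCm38.p6) were matched for 7 of the 9 genes (all but Fech and Hmox1), 11 windows in all. The 250 bases before the first listed start of Alas1 lie at chr9:106247955-106248204 (minus strand), and a site of 30 bases that follows this start lies at chr9:106247906-106247935. Those of Urod lie at chr4:116994414-116994663 (minus strand), those of Cpox at chr16:58669958-58670207 (plus strand), and those of Blvrb at chr7:27447728-27447977 (plus strand). They read 5′ to 3′ along the gene's strand, and capitals mark each match to a searched motif.
Alas1 upstream: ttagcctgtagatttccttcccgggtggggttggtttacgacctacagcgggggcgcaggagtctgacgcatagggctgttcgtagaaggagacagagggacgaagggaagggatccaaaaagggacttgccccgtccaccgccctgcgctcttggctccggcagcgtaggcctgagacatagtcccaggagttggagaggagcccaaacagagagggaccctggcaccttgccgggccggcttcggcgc
Alas1 site: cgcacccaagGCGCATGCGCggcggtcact
Urod upstream: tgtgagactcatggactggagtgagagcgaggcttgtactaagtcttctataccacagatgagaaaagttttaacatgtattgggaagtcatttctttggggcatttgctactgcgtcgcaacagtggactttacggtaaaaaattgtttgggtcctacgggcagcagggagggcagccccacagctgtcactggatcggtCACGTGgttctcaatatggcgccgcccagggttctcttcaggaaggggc
Cpox upstream: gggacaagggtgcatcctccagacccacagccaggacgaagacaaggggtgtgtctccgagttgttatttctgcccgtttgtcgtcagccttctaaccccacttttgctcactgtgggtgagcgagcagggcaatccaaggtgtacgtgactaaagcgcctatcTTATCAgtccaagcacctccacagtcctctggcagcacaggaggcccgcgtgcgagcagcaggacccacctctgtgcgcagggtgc
Blvrb upstream: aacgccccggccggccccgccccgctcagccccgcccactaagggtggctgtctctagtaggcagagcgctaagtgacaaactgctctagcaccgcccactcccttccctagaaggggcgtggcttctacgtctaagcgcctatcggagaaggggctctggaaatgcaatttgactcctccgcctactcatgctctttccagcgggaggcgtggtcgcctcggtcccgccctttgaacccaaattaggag

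5 motifs were searched on both strands. The NRF1 motif GCGCATGCG was present in 1.75% of all 32851 promoter windows, and in both Alas1 windows. The Alas1 windows share this site, where the motif overlaps itself on the opposite strand by all but 1 base, and the match begins at base 30 of the transcript from the first start, which is 195 bases before the second start. The E-box CACGTG was in 7.15% of all windows and in 4 of the 11 member windows. It began 49 bases before the start of Urod, 105 and 28 bases before the starts of Alad, and 250 bases before a start of Uros. The GATA motif TGATAA was in 9.05% of all windows, and its reverse complement began 86 bases before the start of Cpox and 68 bases before a start of Uros. The antioxidant response core TGACNNNGC (12.4% of all windows) and the nuclear receptor half-site AGGTCA (16.3%) were in 0 of the 11 windows. No other motif overlaps were seen among these matches. They describe letters in these windows only.

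Alas1, whose product joins glycine and succinyl-CoA in the first step of heme synthesis, was lower in every soy liver than in every control liver. On its brightest probe (NM_001291835) the normalized signal was 17.13, 17.05 and 17.30 (log2) in control 1, 2 and 3, and 16.72, 15.92 and 16.40 in soy 1, 2 and 3. The lowest control and the highest soy array were 0.33 apart, and soy 2 was the lowest of the 6. The difference was -0.81 (SE 0.20, 95% interval -1.27 to -0.36), or 1.76 times lower in soy (1.28 to 2.41). It did not pass, with an adjusted p of 0.165 in limma.

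The other Alas1 probes gave the same order of groups. On the probe of NM_020559 the control arrays read 14.36, 14.35 and 15.00 and the soy arrays 13.75, 13.02 and 13.49, a difference of -1.15 (SE 0.24, adjusted p = 0.114). On the second probe of NM_001291835 the control arrays read 13.52, 13.89 and 14.53 and the soy arrays 13.20, 12.27 and 12.85, a difference of -1.21 (SE 0.30, adjusted p = 0.179). All 3 probes thus separated the groups without passing, with soy 2 lowest and soy 1 highest among the soy arrays on each, and all 3 read the same 6 RNA samples. In all, 237 genes (1.03% of those with a probe) had a lower log2 change on their brightest probe than Alas1.

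The arrays lay on 3 slides, of which slide 1 held control 1, control 2 and soy 1, slide 2 held soy 2 alone, and slide 3 held control 3 and soy 3. Within slide 1 the Alas1 difference on the brightest probe was -0.37, and within slide 3 it was -0.89. With the slide as a block it was -0.60 (adjusted p = 0.321). Soy 2, alone on slide 2, adds nothing to the diet difference in such a fit, here or below. The size of the Alas1 difference therefore varied between slides 1 and 3 by more than 1.5 times, while its sign was the same in both. Slide 2 held no control array and gives no difference. From the scanner software's processed signal, brought to a common 75th percentile, Alas1 passed (-0.90, adjusted p = 0.0402). Under that setting 13138 of all 56605 probes passed, against 198 in the main fit. Over all alternatives the adjusted p of Alas1 lay between 0.0402 and 0.333. In RNA of whole liver, fewer cells of a type and less RNA per cell cannot be told apart.

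**Figure D2:**
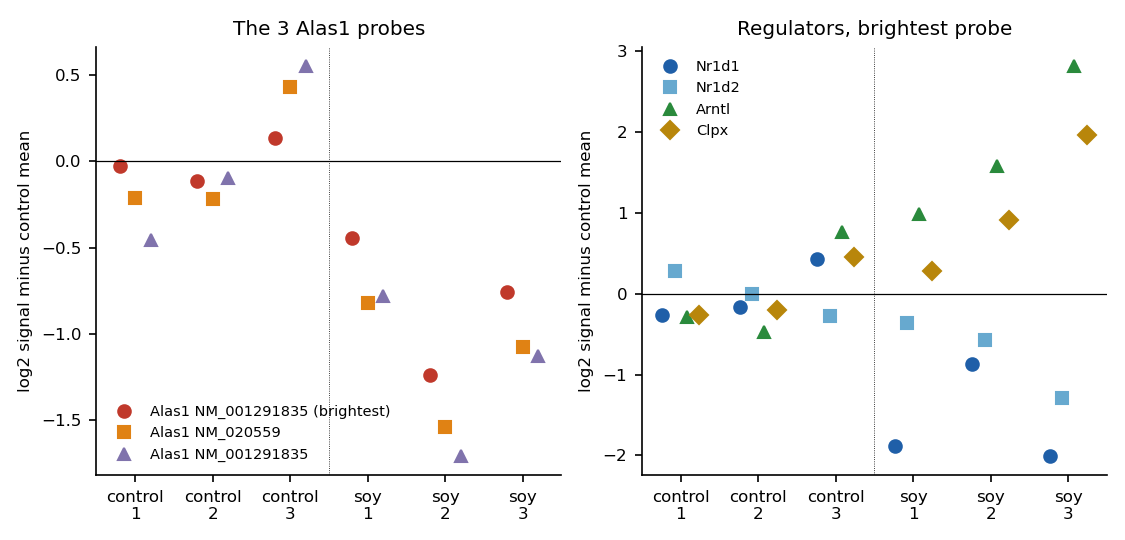
Signal of each array minus the control mean (log2) for the 3 Alas1 probes (left) and, on the brightest probe, for Nr1d1, Nr1d2, Arntl and Clpx (right), with arrays in columns and different axis ranges in the panels. All Alas1 soy points lie below all control points of the same probe. Nr1d1 (-1.58) and Nr1d2 (-0.74) are lower in soy without overlap, Arntl (1.79) is higher without overlap, and Clpx (1.05) overlaps. None of these 4 changes passed.

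The genes of the next steps, Alad and Uros, showed no separation. Alad encodes the enzyme that condenses aminolevulinic acid into porphobilinogen. It read 14.02, 15.17 and 13.89 in the controls and 14.58, 14.35 and 14.26 in the soy livers, so that control 2 was the highest and the other controls the lowest arrays. The difference was 0.04 (SE 0.32, 95% interval -0.70 to 0.77, adjusted p = 0.978), and without control 2 it was 0.44. The interval of Alad is the widest among the brightest probes of the 9 genes, and its sign turned under a 75th-percentile shift (-0.0028) and with the processed signal (-0.013).

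Uros, which closes the tetrapyrrole ring to uroporphyrinogen, had 3 probes. The brightest (NM_001302085) read 11.92, 12.08 and 11.92 in control and 11.82, 12.21 and 12.06 in soy livers, a difference of 0.06 (SE 0.13, adjusted p = 0.903). The groups overlapped on it, as they did on the probe of NM_009479 (-0.09, adjusted p = 0.865). The probe of NM_001302086 was well above background on 3 control arrays and on 0 soy arrays. No fold is given for it (measured means 6.85 in control and 6.71 in soy, adjusted p = 0.758), and its groups overlapped. The 13 other member probes were well above background on all 6 arrays, and 0 member spots were saturated. Over all probes, the spots well above background numbered 37010 (control 1), 36366 (control 2), 38163 (control 3), 31308 (soy 1), 31988 (soy 2) and 32498 (soy 3), a count that differed with the diet and whose part in the results was not tested.

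Urod and Cpox, which trim the side chains of the porphyrinogen in consecutive steps, were higher in all 3 soy livers. Urod, the decarboxylase, read 15.05, 15.07 and 15.05 in control and 15.32, 15.33 and 15.23 in soy livers. The control arrays of Urod differed little (SD 0.0094), and the groups were 0.17 apart. The difference of 0.24 (SE 0.09, 95% interval 0.03 to 0.45, 1.18-fold) did not pass, with an adjusted p of 0.369. It was 0.26 within slide 1 and 0.18 within slide 3.

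Cpox, coproporphyrinogen oxidase, read 13.23, 12.80 and 13.18 in control and 13.51, 13.79 and 13.61 in soy livers. Control 2 was the lowest array, and the groups were 0.27 apart. The difference was 0.57 (SE 0.15, 95% interval 0.22 to 0.91), which is 1.48-fold and just under the fold threshold, with an adjusted p of 0.187. Cpox was higher in soy within slide 1 (0.49) and within slide 3 (0.42), and 789 genes (3.44%) had a higher log2 change. It passed with the processed signal (0.59, adjusted p = 0.0351), where 13138 of all 56605 probes did, and under no other alternative.

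**Figure D3:**
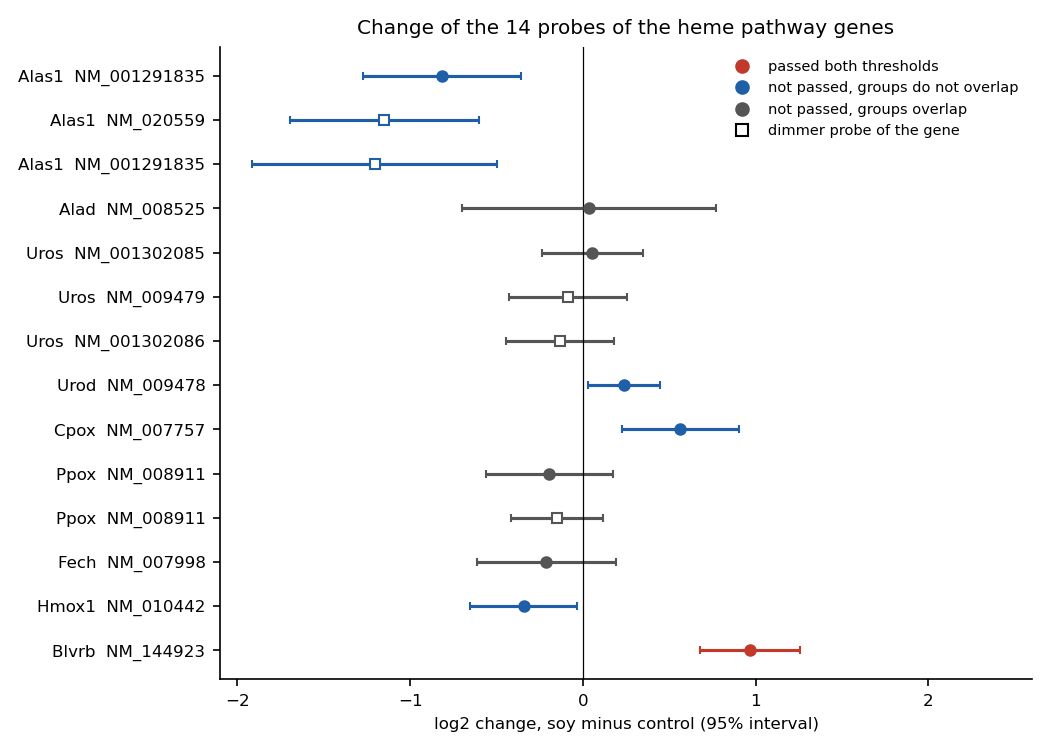
Log2 change (soy minus control) of the 14 member probes with the 95% interval of the limma fit. Round points are the brightest probe of a gene and open squares its dimmer probes. Blvrb (0.97) passed both thresholds, the 3 Alas1 probes (-0.81, -1.15 and -1.21) have the lowest values, and the intervals of all Alad, Uros, Ppox and Fech probes include 0.

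The last enzymes of the path, which oxidize protoporphyrinogen and insert the iron, did not separate. Ppox, protoporphyrinogen oxidase, read 10.56, 10.96 and 10.79 in control and 10.62, 10.31 and 10.79 in soy livers (-0.19, SE 0.16, adjusted p = 0.693). Its second probe gave -0.15 (SE 0.11, adjusted p = 0.668), and control and soy arrays overlapped on both. With 1 array left out the brightest probe lay between -0.30 (without soy 3) and -0.06 (without soy 2). Fech, ferrochelatase, read 14.83, 14.37 and 14.32 in control and 14.47, 14.36 and 14.05 in soy livers. The Fech groups overlapped, with control 1 the highest and soy 3 the lowest array (-0.21, SE 0.17, 95% interval -0.61 to 0.19, adjusted p = 0.692). Without control 1 the Fech difference was -0.05, and without soy 3 it was -0.09.

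In heme breakdown, the gene of the inducible heme oxygenase Hmox1 was lower and that of a biliverdin reductase, Blvrb, higher in soy livers. Hmox1 read 11.93, 12.30 and 12.07 in control and 11.62, 11.73 and 11.92 in soy livers. The groups did not overlap, but control 1 and soy 3 were only 0.0064 apart. The difference was -0.34 (SE 0.13, 95% interval -0.65 to -0.03), or 1.27 times lower, and did not pass (adjusted p = 0.387). Within slide 1 it was -0.50 and within slide 3 it was -0.15, and over the alternatives its adjusted p lay between 0.175 and 0.687.

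Blvrb encodes biliverdin reductase B, an enzyme that reduces biliverdin and also flavins. It read 13.71, 13.66 and 13.96 in control and 14.89, 14.62 and 14.72 in soy livers. Every soy array was above every control array, with a gap of 0.66 between the groups. The rise was 0.97 (SE 0.12, 95% interval 0.68 to 1.26), or 1.95-fold (1.60 to 2.39), with an adjusted p of 0.0326. A higher log2 change was found in 202 genes (0.882%). Blvrb is also on the study's own list of changed genes, which was drawn from these livers, so that its rise has no independent support here.

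The Blvrb rise lay between 0.89 and 1.06 with any 1 array left out, while its adjusted p did not always stay under the threshold. Within slide 1 it was 1.20 and within slide 3 it was 0.75, and with the slide as a block 1.01 (adjusted p = 0.150). The call was lost without control 1 (adjusted p = 0.0886), control 2 (0.119), soy 1 (0.0947), soy 2 (0.106) or soy 3 (0.121). It was also lost with a normexp offset of 16 (0.0752). It held without control 3 (1.06, adjusted p = 0.0411). Over all alternatives the adjusted p of Blvrb lay between 0.00297 and 0.150.

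**Figure D4:**
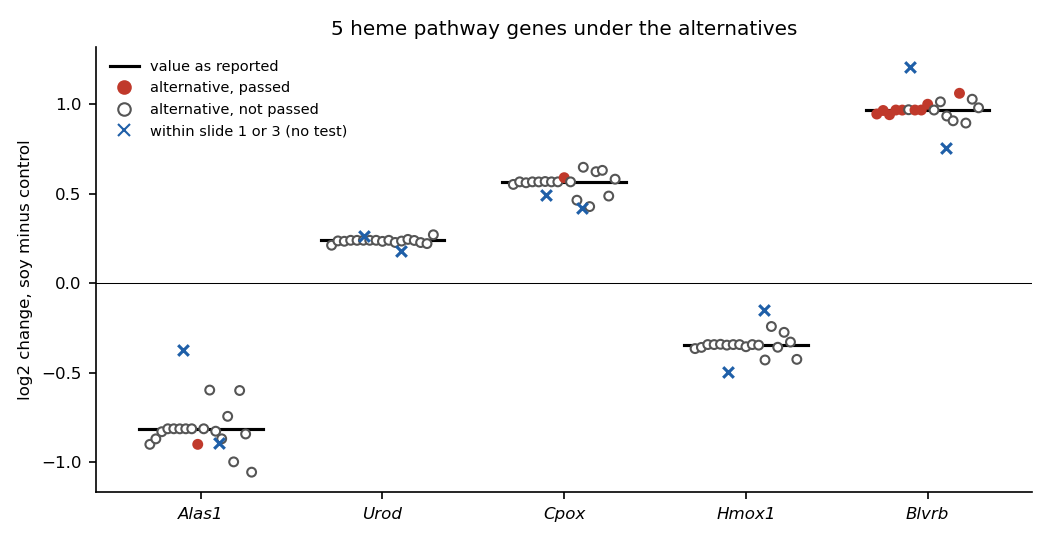
Log2 change (soy minus control) of the 5 genes whose groups did not overlap, as reported (line), under each alternative with a test (circles, filled where both thresholds were passed) and within the slides that hold both diets (crosses). Each gene keeps its sign throughout. Blvrb is filled in part of the alternatives, and Alas1 and Cpox in 1 alternative each, the processed signal, where 13138 of 56605 probes passed.

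Genes with the pattern most like those of the first enzymes of synthesis and breakdown were sought among 13498 genes well above background, as the smallest root mean square difference of centred log2 signal over the 6 arrays. For Alas1 they were Sult1a1, a sulfotransferase (0.137), Errfi1, a feedback inhibitor of the EGF receptor (0.144), and Rdh18-ps (0.161). Of the other members, Ppox had the smallest difference from Alas1 (0.382) and Blvrb the largest (0.904). For Hmox1 they were Uba7 (0.045), Tgfbr3 (0.0471) and Armt1 (0.0542), and the nearest member was again Ppox (0.146). With 6 arrays these are descriptions of likeness only.

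Of the other enzymes of the path that were on the list, 0 passed in limma, and 0 had an unadjusted p under 0.05. Alas2, the red cell form of the first enzyme, read 13.95, 11.42 and 13.93 in control and 13.70, 13.57 and 13.28 in soy livers, so that control 2 stood apart. Its difference of 0.42 (SE 0.62, adjusted p = 0.842) turned to -0.42 without control 2. The constitutive heme oxygenase Hmox2 differed by 0.01, a value whose sign turned under several alternatives, and Blvra, the main adult biliverdin reductase, by -0.15 (adjusted p = 0.693). With 1 array left out Blvra lay between -0.25 (without control 1) and -0.07 (without control 2).

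Among the 18 genes of heme and porphyrin transport and binding, 0 passed, 5 were higher in soy without overlap (9.68% of all genes were) and 0 lower (10.8% of all genes), and the median change was 0.10. On the brightest probe 5 had an unadjusted limma p under 0.05, as had 3267 of all 22911 genes. The count of 0 became 1 with eBayes trend and robust settings, over probes well above background or without control 3. It became 2 with the processed signal, where 13138 of all 56605 probes passed. Slc48a1, which carries heme out of lysosomes, came nearest, with 12.30, 11.81 and 11.96 in control and 12.75, 13.02 and 13.14 in soy livers. Its groups were separate on both probes (0.95, adjusted p = 0.0683, and 0.75, adjusted p = 0.069). The others named by size were Abcg2, a porphyrin exporter (0.56, adjusted p = 0.281), Pgrmc1, a heme-binding membrane protein (0.48, adjusted p = 0.175), and Abcb6, a porphyrin transporter (0.41, adjusted p = 0.174).

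Of the 18 regulators of Alas1 and Hmox1, with a median change of 0.11, 1 passed, beside 0.532% of all genes. This was Nr1i3, the nuclear receptor CAR that activates Alas1, on the probe of NM_001243062 (0.87, SE 0.12, adjusted p = 0.0426). Its brightest probe gave a similar value that did not pass (0.85, adjusted p = 0.0877). The call was lost without control 1 (adjusted p = 0.105), control 2 (0.152), soy 1 (0.108), soy 2 (0.161) or soy 3 (0.143), with the slide as a block (0.171) and with an offset of 16 (0.0964). Without overlap 5 regulators were higher in soy and 4 lower, beside 9.68% and 10.8% of all genes. Nr1d1, a repressor of the clock that binds heme, read 10.03, 10.12 and 10.72 in control and 8.41, 9.43 and 8.29 in soy livers (-1.58, SE 0.32, adjusted p = 0.106). Its paralog Nr1d2 was at -0.74 (adjusted p = 0.317), and Arntl, a clock activator that both repress, at 1.79 (adjusted p = 0.210), although its other probes gave 0.72 and -0.0030 with overlapping groups. Clpx, the mitochondrial unfoldase that acts on ALAS proteins, overlapped between the groups (1.05, adjusted p = 0.377). Without soy 3 Clpx was at 0.60 and Nr1d2 at -0.47.

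Of 15 genes of iron supply and iron-sulfur cluster assembly, 6 were higher in soy without overlap (9.68% of all genes were) and 0 lower (10.8%). The 1 that passed, beside 0.532% of all genes, was Tfrc, the transferrin receptor. It read 9.50, 9.77 and 9.44 in control and 10.69, 10.70 and 11.01 in soy livers, a rise of 1.23 (SE 0.14, adjusted p = 0.0219). The call was lost without control 1 (adjusted p = 0.0647), control 3 (0.0503), soy 1 (0.0664), soy 2 (0.0853) or soy 3 (0.0732), and with the slide as a block (0.136). Slc11a2, the iron importer DMT1, was higher without overlap on its brightest probe, of NM_001146161 (1.08, adjusted p = 0.0505). On its other probes, all of NM_008732, the groups overlapped (-0.20, -0.10 and 0.03). Slc11a2 passed beside Tfrc, for a count of 2, under the 75th-percentile shift (adjusted p = 0.0384) and eBayes trend and robust settings (0.0372). It did so too over probes well above background (0.0263) and with the processed signal (0.00496). Slc25a37, which brings iron into mitochondria, was at 0.56 (adjusted p = 0.0765), the iron exporter Slc40a1 at 0.49 (adjusted p = 0.409), and Fdx1, an electron carrier, at -0.35 (adjusted p = 0.448). Without soy 3 these were 0.31 for Slc40a1 and -0.22 for Fdx1, and without control 1 Slc40a1 was at 0.32.

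The users of heme were 21 genes, of which 1 passed, beside 0.532% of all genes. Cyp4a14, a fatty acid omega-hydroxylase, read 6.93, 6.72 and 7.26 in control and 9.78, 10.21 and 10.74 in soy livers, and was well above background on 2 of 3 control arrays. Its rise of 3.27 (SE 0.25) had an adjusted p of 0.00785, and with the processed signal it was 4.60. The other cytochromes P450 named by size were Cyp4a10 (2.15, adjusted p = 0.228), Cyp3a11 (1.28, adjusted p = 0.128), Cyp8b1 (0.71, adjusted p = 0.136) and Cyp2b10 (-1.38, adjusted p = 0.561). The first 3 of these were higher without overlap, whereas Cyp2b10 overlapped. In the whole list 5 genes were higher and 2 lower without overlap, beside 9.68% and 10.8% of all genes. Without control 3 Cyp3a11 passed too (1.58, adjusted p = 0.0471), so that 2 heme users did. With 1 array left out Cyp2b10 lay between -2.31 (without control 3) and -0.57 (without control 1), and Cyp4a10 between 1.36 (without control 2) and 2.69. The dimmer Cyp2b10 probe was lower without overlap and well above background on 0 soy arrays. The median change of the heme users was 0.10.

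Of 8 genes of bilirubin uptake, conjugation and export 6 had a matched probe, and 2 passed, beside 0.532% of all genes. Abcc3, a basolateral exporter of bilirubin conjugates, read 14.07, 14.03 and 14.00 in control and 14.90, 14.77 and 14.92 in soy livers (0.82, SE 0.09, adjusted p = 0.0244). Gstm1, a glutathione transferase, rose by 0.96 (SE 0.13, adjusted p = 0.0398), and by 1.20 on its other probe. The Abcc3 call was lost whichever of the 6 arrays was left out (adjusted p between 0.0587 and 0.103), and Gstm1 lost it on its brightest probe without control 2 (0.119), control 3 (0.0918), soy 1 (0.116), soy 2 (0.138) or soy 3 (0.143). Counted on either probe, Gstm1 still passed without control 1 or control 3 (on its other probe in the latter case, adjusted p = 0.0219). With the slide as a block both calls were lost (adjusted p = 0.127 and 0.184), as they were with an offset of 16 (0.0710 and 0.0913). The brightest Gstm1 probe also missed the threshold with a 75th-percentile shift (0.0543) and cyclic loess (0.0664), where the other probe passed. Abcc2, the canalicular exporter, was at 0.34 (adjusted p = 0.337), and the uptake carriers Slco1b2, Slco1a1 and Slco1a4 at 0.15, -0.10 and -0.14. With 1 array left out Slco1b2 lay between 0.04 (without soy 1) and 0.23 (without control 2).

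Over the 6 lists together, 82 of 84 genes were measured and 5 passed, all higher in soy, beside the 0.532% of all genes. Their median change was 0.12, with 24 higher and 6 lower without overlap, beside 9.68% and 10.8% of all genes. With the slide as a block 4 of the 5 calls were lost, and only Cyp4a14 passed (3.18, adjusted p = 0.0269). The study itself drew attention to several of them (Nr1i3, Tfrc, Slc11a2, Slc40a1, Gstm1 and Cyp4a14) on these livers, so that the count is not independent evidence of a direction.

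**Figure D5:**
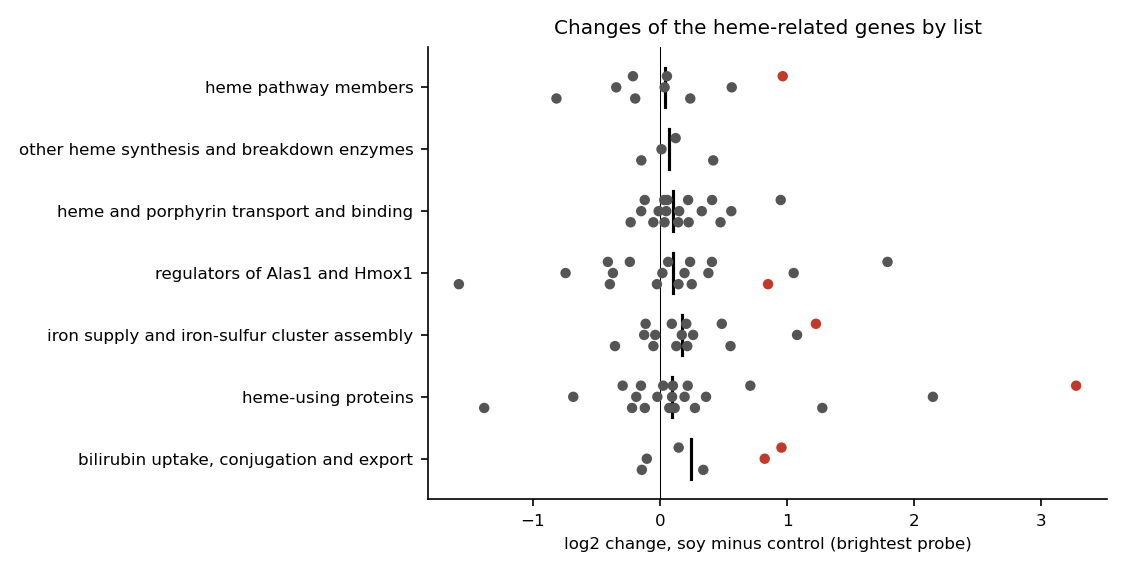
Log2 change (soy minus control) on the brightest probe for the 9 members and the 82 measured genes of the 6 lists. Points are genes, spread vertically for sight only, red where at least 1 probe of the gene passed, and the black bars are list medians. Red points are Blvrb (0.97), Nr1i3 (0.85), Tfrc (1.23), Cyp4a14 (3.27), Abcc3 (0.82) and Gstm1 (0.96).

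Markers of other cells that make or break down heme were read beside these values. Of 11 red cell markers 10 were measured and 7 were well above background on all arrays, while Epb42 and Rhag were so on no array. Their summed signal, led by the globin gene Hba-a1, was 18.35, 17.92 and 18.48 (log2) in control and 18.03, 19.21 and 18.35 in soy livers, highest in soy 2 and lowest in control 2. The 11 Kupffer cell markers, led by Cd5l, were all well above background, with sums of 15.35, 15.84 and 16.04 in control and 15.68, 15.93 and 16.23 in soy livers. The hepatocyte markers summed to 20.86, 20.93 and 20.90 in control and 20.83, 20.67 and 20.76 in soy livers, 0.15 lower in soy. Their median change was -0.20, with 7 of 8 below 0 and 1 lower without overlap (10.8% of all genes were). That of the Kupffer cell markers was 0.15, with 10 of 11 above 0. The sum of 5 neutrophil markers (led by S100a9, with Ngp at background) differed by 0.19, while their median change was 0.49, with 4 above 0 and Camp at -0.54. Of these, Retnlg was higher (0.49) and Camp lower without overlap, as were 9.68% and 10.8% of all genes. The mean sums differed by 0.13 for 5 endothelial markers (Clec4g), -0.13 for 5 stellate cell markers (Dcn) and 0.11 for 5 cholangiocyte markers (Spp1, with Epcam at background). Of all 7 marker lists 0 genes passed in limma, and Cps1, Tat, Camp and Retnlg had an unadjusted p under 0.05. The part of these cells in the values of the heme genes was not tested.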

How the data were processed

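Liver RNA of 6 mice was read on 1-colour Agilent mouse gene expression arrays. Per the file headers, the authors deposited output of Feature Extraction 11.5.1.1 with the median intensity of each spot and its background, not normalized, a processed signal, and a table of log2 values, quantile normalized, that was used as an alternative. The median intensities were background corrected (normexp, offset 50), quantile normalized over non-control spots and log2 transformed. Replicate spots of a probe were averaged without those flagged as outliers by the scanner software. Soy was compared with control on all 56605 probes with limma 3.58.1 in R 4.3.3 and Benjamini-Hochberg adjustment over all probes, and the fit was tested on simulated data. Changes are on the log2 scale with an added offset, which understates those of dim probes.

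A single passing probe was enough for its gene to count as passed. Symbols came from RefSeq accessions (GRCm38.p6 tables), and 32994 probes had one. The array annotation is on mm9, so only the positions of the promoter windows are given. The groups came from the labels, which name separate animals. A gene is given by its brightest probe. From each list the text names the genes that passed and up to 4 with the largest change on a probe well above background. Some list genes are not reported here by name. The members, lists and motifs were chosen with earlier results of these data known. The precision is limited by 3 arrays per group. Tables and plots were made with Python 3.11.15, pandas 2.3.3 and matplotlib 3.10.9. The alternatives, which covered background correction, scaling, dim probes, outlier spots, variance model, replicate block, slide, the deposited log2 values, the fold threshold and each array left out, are in the closing section.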

Additional observations from a re-analysis of the deposited data

How the results depend on the processing

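The count of probes that passed, 198 (118 higher, 80 lower), became 299 with a 75th-percentile shift, 77 with an offset of 16, 493 over probes well above background, 13138 with the processed signal (11924 higher, 1214 lower) and 24 with the slide as a block. The count of heme pathway genes that passed, 1, became 0 with an offset of 16 (Blvrb adjusted p = 0.0752) or the slide as a block, and 3 with the processed signal (Alas1, Cpox and Blvrb). Leaving out 1 array at a time gave 23 to 199 probes and 0 to 1 genes. The median change over all probes moved to 0.13 under both the 75th-percentile shift and the processed signal.

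The replicate numbers do not pair the mice, since same-numbered arrays deviated with correlations of 0.116, -0.057 and 0.106. With them as a replicate block 77 probes and 0 heme pathway genes passed (Blvrb adjusted p = 0.0805), and of the 5 list genes that had passed only Cyp4a14 did (adjusted p = 0.00853), not Nr1i3 (0.102), Tfrc (0.0710), Abcc3 (0.0783) or Gstm1 (0.0845). With an offset of 16 Nr1i3 (0.0964), Abcc3 and Gstm1 did not pass either. With the processed signal 3 of 18 regulators, 2 of 15 iron supply genes and 3 of 21 heme users passed. Of all 56605 probes, 13138 passed under that setting.

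On the brightest probes, Alas1, Urod, Cpox, Fech, Hmox1 and Blvrb kept their sign under all alternatives run. The sign turned for Alad (75th-percentile shift -0.0028, processed signal -0.013, slide 1 -0.013, arrays left out -0.20 to 0.44), Uros (slide block -0.045, slide 1 -0.18, mean of its probes -0.054, arrays left out -0.035 to 0.16) and Ppox (slide 3 0.0046). It turned for the Uros probe of NM_009479 (arrays left out -0.21 to 0.023) and that of NM_001302086 (75th-percentile shift 0.11, arrays left out -0.21 to 0.0013). Among the list genes named in the text it turned for Alas2 (arrays left out -0.42 to 0.85), Hmox2 (75th-percentile shift -0.013, cyclic loess -0.0040, processed signal -0.022, arrays left out -0.073 to 0.10), Slco1a1 (slide block 0.044, arrays left out -0.25 to 0.051) and Slco1a4 (slide block 0.17, arrays left out -0.46 to 0.31). The causes were not tested.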
